A study of Rattus norvegicus with 8 samples.

Results

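Complement and coagulation factors are plasma proteins made mainly by hepatocytes, the parenchymal cells of the liver. The set described here was a list of 41 gene symbols, of which 37 were measured and 4 were not. A symbol counted as measured where a probe set was annotated with that symbol alone, and the probe set with the highest mean over arrays stood for it. C2 and Cfb share a probe set that lists both symbols and were left out, and C5 and F9 had no single-symbol probe set among those named here. The 37 genes stand among 14511 genes tested in the whole series.

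The livers of female Wistar rats, an outbred stock, were profiled on 8 Affymetrix Rat Gene 1.0 ST arrays, 2 per group. The groups were regenerating liver taken 8 h after PH (partial hepatectomy, in which the lateral lobes, most of the organ, are cut away) and livers of unoperated rats aged 2, 4 and 12 weeks. The labels give no age for the operated rats, and no sham-operated animals were analysed here, so that surgery, anaesthesia, age and time of day cannot be told apart in any comparison with PH. Both arrays of a group are titled as biological replicates, but the series' description has each sample processed in duplicate. Whether they hold separate animals is not clear. The p-values of the main model rest only on how far the 2 arrays of a group lie apart. That spread is pooled over the 4 groups and drawn towards the spread over all genes, and it may be technical.

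Complement is a chain of proteases that tags and perforates microbes. The classical and lectin pathways start it with recognition proteins and serine proteases, the alternative pathway amplifies it at C3, and the terminal factors assemble into a membrane pore. Coagulation is a related chain of serine proteases that ends with thrombin cutting fibrinogen into fibrin. Serpins hold thrombin and the early proteases in check, and plasmin dissolves the clot. Liver is the main source of most of these proteins, and several of them, fibrinogen above all, are known as acute-phase proteins that rise with inflammation.

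Values are levels on the log2 scale from robust multi-array averaging (RMA), so a difference of 1 is a 2-fold change. The 8 hepatocyte markers (Alb, Ttr, Apoa1, Tf, Serpina1, Ahsg, Apoh and Rbp4) averaged between 13.35 and 13.63 on the 8 arrays, near the top of the scale. Erythroid markers (5 of 6 measured) averaged 7.81 and 7.15 on the 2-week arrays and 6.69 and 7.09 on the 4-week arrays, against 5.46 to 5.84 on the other 4. Stellate cell markers (7 of 7) averaged 9.07 and 8.79 at 2 weeks, 9.14 and 8.07 at 4 weeks and 7.51 to 7.64 elsewhere. Neutrophil markers (7 of 7) averaged 7.63 and 5.77 on the 2-week arrays and 4.89 to 5.65 elsewhere. The part of these other cells in the results below was not tested. In a bulk sample fewer cells of a type and less RNA per cell cannot be told apart.

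None of the measured complement and coagulation factors passed the test in any comparison of the operated liver and the 3 ages. In limma, 0 of the 37 genes were called in any of the 6 pairwise comparisons at an adjusted p under 0.05 (Benjamini-Hochberg over all 14511 genes), and 0 by an F test over the 4 groups, which called 1.79% of all genes. The shares of all genes called were 0.0345% for PH against 12 weeks, 2.23% for 2 against 12 weeks, 0.11% for 4 against 12 weeks, 0.455% for 2 against 4 weeks, 2.16% for PH against 2 weeks and 0.31% for PH against 4 weeks. With shares this small, 0 of 37 is near the background. In the same order 2, 3, 3, 3, 6 and 2 members had an unadjusted p under 0.05, against 6.01%, 11.1%, 4.47%, 7.24%, 11.6% and 10.2% of all genes.

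The range of a gene's 4 group means ran from 0.08 to 1.19 among the members, with a median of 0.39 against 0.44 over all genes. It was under 0.25 for 10 members, under 0.5 for 22 and at least 1 for 2, F7 and C6. For 19 of the 37 members the range of the group means was wider than the widest gap between the duplicates of any group, which held for 31.3% of all genes. The unadjusted 95% interval of the difference lay within 1 log2 unit of 0 for 30, 25, 28, 29, 27 and 30 of the 37 members in the order of comparisons above, against 66.1%, 58.8%, 67%, 63.5%, 59.7% and 60.2% of all genes. For 20 members this held in all 6 comparisons, so that a 2-fold difference lay outside each of their intervals. The share of all genes for which it held in all 6 was not counted, so this number has no background. A p that misses the threshold does not show that the remaining members did not differ. Of the 37 members, 18 averaged above 12 on a scale that ended at 14.23, and whether differences are compressed so near the top of the scale was not tested.

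**Figure D1:**
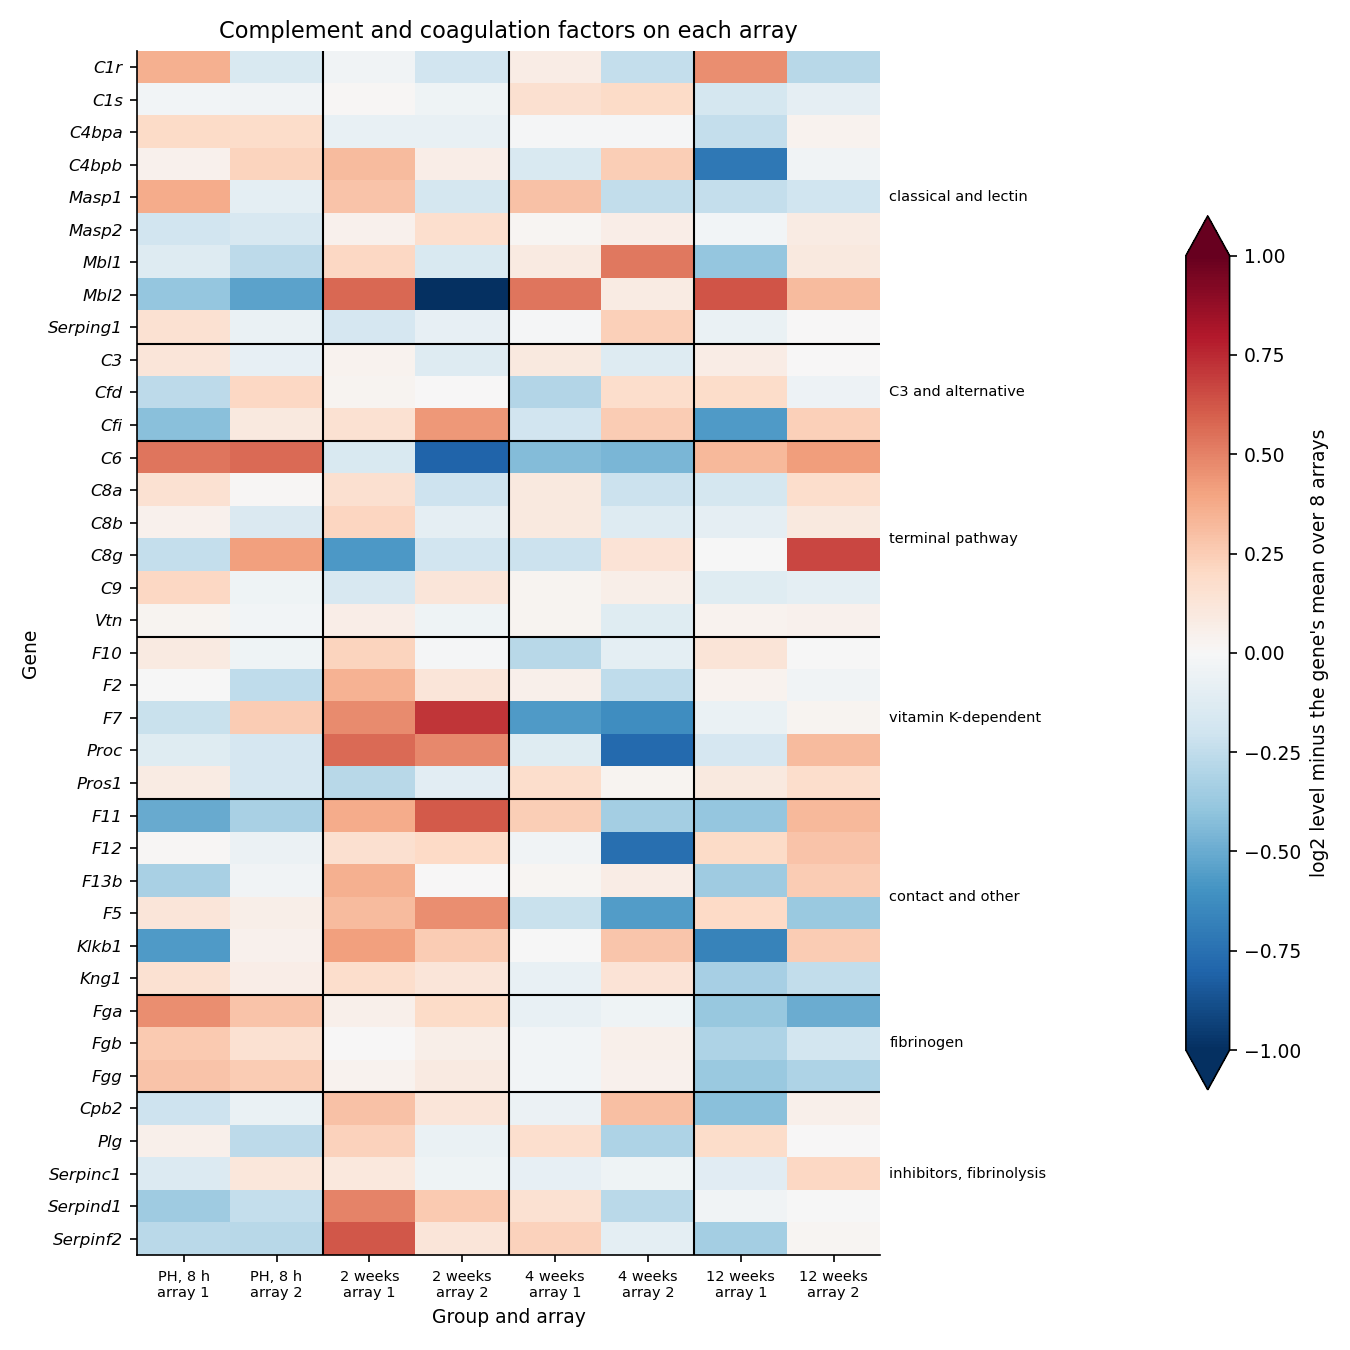
Heat map of the 37 genes (rows, grouped by role) on the 8 arrays (columns, 2 per group). The colour is the log2 RMA level minus the gene's own mean over the 8 arrays. The fibrinogen chains are red on both PH arrays and blue on both 12-week arrays, C6 is blue on the 2- and 4-week arrays, and Mbl2 differs between the duplicates at 2 weeks by 1.78.

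The 12-week arrays stood furthest apart over all genes, with a correlation of 0.952 over genes against 0.975 to 0.98 for the other groups. Among the members the median gap between the 2 arrays was 0.18 for PH, 0.17 for 2-week, 0.29 for 4-week and 0.18 for 12-week livers, against 0.23, 0.24, 0.26 and 0.41 over all genes. Of the 37 members only Mbl2, at 2 weeks, was more than 1 log2 unit apart between duplicates. At 12 weeks 9 of the 37 members were higher on the first array than on the second, against 24, 24 and 19 in the PH, 2-week and 4-week groups.

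The fibrinogen chains had the same order of group means in all 3 genes as deposited. The mean was highest after PH, then at 2 weeks, then at 4 weeks, and lowest at 12 weeks. The step from 2 to 4 weeks was only 0.05 for Fgg and 0.02 for Fgb, each with an SE of 0.20. Its sign turned under another scaling for both. Fga, Fgb and Fgg encode the Aα, Bβ and γ chains that assemble into 1 protein, the substrate of thrombin. Fga was at 13.53 and 13.35 after PH, at 13.12 and 13.26 in the 2-week livers, at 12.99 and 13.02 in the 4-week livers and at 12.69 and 12.57 in the 12-week livers. Both PH arrays were above every other array, and both 12-week arrays were below every other array. Fgg was at 13.73 and 13.70 after PH, 13.48 and 13.54 at 2 weeks, 13.42 and 13.49 at 4 weeks, and 13.08 and 13.14 at 12 weeks. Its PH arrays again did not overlap with any other group, while the 2- and 4-week arrays did overlap with each other. Fgb was at 13.48 and 13.37 after PH, 13.22 and 13.28 at 2 weeks, 13.19 and 13.27 at 4 weeks, and 12.91 and 13.04 at 12 weeks. Its arrays had the same separation of PH above, and of 12 weeks below, all other arrays.

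Between PH and 12 weeks, Fga differed by 0.81 ± 0.21 (log2, SE; n = 2 and 2), a 1.75-fold difference with an adjusted p of 0.4035 in limma and a 95% interval of 0.33 to 1.29. Fgg differed by 0.61 ± 0.20 (adjusted p = 0.5991) and Fgb by 0.45 ± 0.20 (adjusted p = 0.8542). These 3 differences stayed above 0 in each of the 14 alternatives for each gene, between 0.72 and 0.90 for Fga, 0.55 and 0.64 for Fgg and 0.38 and 0.51 for Fgb. None passed the threshold. Of all genes, 13.7% had both PH arrays above both 12-week arrays, and 10 of the 37 members did (27%), the 3 fibrinogen chains among them.

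At 2 weeks the chains exceeded the 12-week level by less, 0.56 ± 0.21 for Fga, 0.40 ± 0.20 for Fgg and 0.27 ± 0.20 for Fgb, and at 4 weeks by 0.37 ± 0.21, 0.35 ± 0.20 and 0.25 ± 0.20. These comparisons share the 12-week arrays with that of PH. PH and 2 weeks were compared by means that leave out those arrays, though the pooled spread does not. PH exceeded 2 weeks by 0.25 ± 0.21, 0.20 ± 0.20 and 0.18 ± 0.20 for Fga, Fgg and Fgb. That of Fga was 0.16 without the first PH array, and with each array centred on its median the 3 were 0.40, 0.35 and 0.33. Between 2 and 4 weeks the chains differed by 0.02 to 0.19, and the sign for Fgb and Fgg turned under another scaling.

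The genes of the fibrinogen chains lie next to each other in the rat genome, with no other protein-coding gene between Fgg and Fga or between Fga and Fgb. The 250 bases before the RefSeq start of each (assembly GRCr8, 5′ to 3′ on the gene's strand) are shown. These neighbours were chosen for having the same order of group means as deposited. The windows are chr2:170652833-170653082 on the plus strand for Fgg, chr2:170671919-170672168 on the plus strand for Fga and chr2:170700876-170701125 on the minus strand for Fgb. Capitals mark matches to GTTAAT, the core of a site for the hepatocyte factor HNF1 (and part of the longer palindromic HNF1 motif), or to TTCNNNGAA, the letters of a STAT site, each searched on both strands.
Fgg: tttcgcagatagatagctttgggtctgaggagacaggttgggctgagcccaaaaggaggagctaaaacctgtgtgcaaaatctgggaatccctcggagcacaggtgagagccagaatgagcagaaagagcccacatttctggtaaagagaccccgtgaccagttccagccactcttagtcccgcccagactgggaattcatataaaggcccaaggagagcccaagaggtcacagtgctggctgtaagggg
Fga: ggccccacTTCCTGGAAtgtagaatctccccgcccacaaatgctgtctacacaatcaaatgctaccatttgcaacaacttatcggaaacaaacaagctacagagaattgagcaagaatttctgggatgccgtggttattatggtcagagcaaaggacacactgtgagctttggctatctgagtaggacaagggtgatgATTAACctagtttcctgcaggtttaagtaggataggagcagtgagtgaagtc
Fgb: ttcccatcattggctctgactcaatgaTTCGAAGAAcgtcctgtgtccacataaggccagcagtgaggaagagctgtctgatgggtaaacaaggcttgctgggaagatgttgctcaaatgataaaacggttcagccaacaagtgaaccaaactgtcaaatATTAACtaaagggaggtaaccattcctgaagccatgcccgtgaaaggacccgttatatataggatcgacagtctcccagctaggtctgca

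Fga and Fgb each held 1 match to GTTAAT, read as ATTAAC on the strand shown, which began 52 bases before the start in Fga and 90 in Fgb. Fga and Fgb each also held 1 match to TTCNNNGAA, which began 242 and 223 bases before the start. The Fgg window held no match to either set of letters, which says only that these letters are not in it. Of the 37 members 30 had a RefSeq window. GTTAAT was found in 9 of these 30 windows (30.0%) and in 6.46% of the windows of all 27457 genes, and TTCNNNGAA in 6 of 30 (20.0%) and in 7.52% of all. The other members with GTTAAT were C4bpa, C4bpb, C8a, F13b, F2, Plg and Proc, and those with TTCNNNGAA were C4bpb, C8a, Pros1 and Vtn. TTNNGCAAT, letters of a C/EBP site, was found in the window of 1 member, Kng1, and in 2.02% of all windows. CAAAGTCCA (HNF4), TTGCGCAA (C/EBP) and the longer HNF1 motif were found in 0 of 30, and in 0.331%, 0.164% and 0.00364% of all windows. A match is a description of the letters and does not show that a factor binds there.

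**Figure D2:**
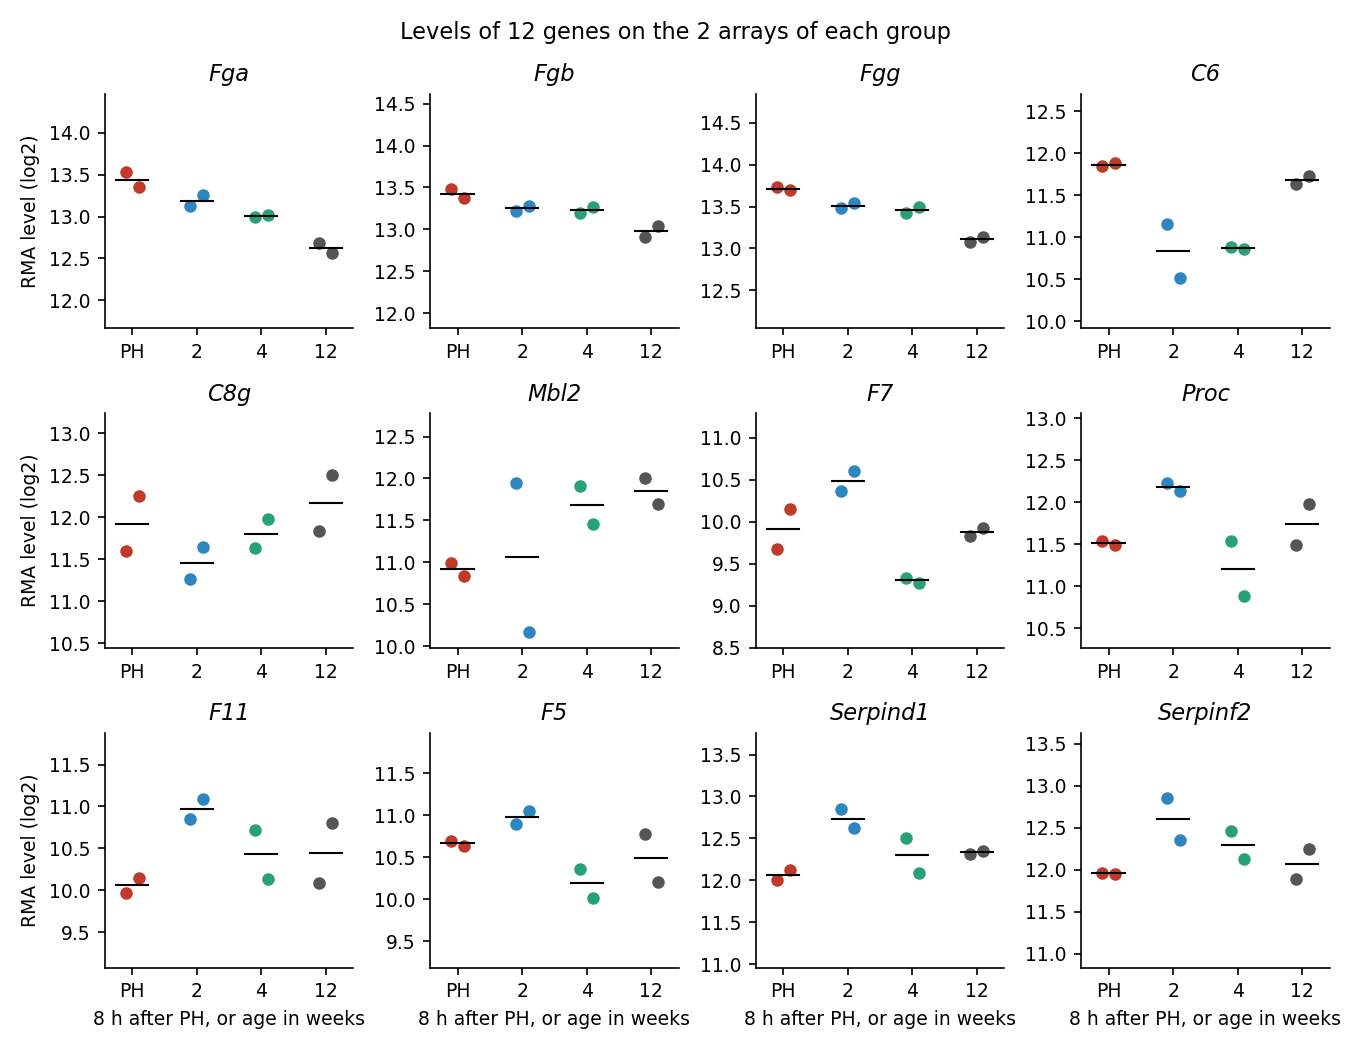
RMA levels (log2, vertical axis, 2.8 units tall in every panel) of 12 genes in 4 groups, with a point for each array and a line at the mean of 2. Fga, Fgb and Fgg descend from PH to 12 weeks, C6 is lower on the 2- and 4-week arrays, and F7 is highest at 2 weeks and lowest at 4 weeks.

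Among the terminal factors and their inhibitor (6 of 7 measured), 0 were called and C6 had the widest range. C6 joins the growing membrane pore after C5b. It was at 11.85 and 11.88 after PH, 11.64 and 11.73 at 12 weeks, 11.16 and 10.51 at 2 weeks, and 10.88 and 10.86 at 4 weeks. All arrays of the 2 young groups were below all arrays of the adult and operated groups. C6 differed by -0.85 ± 0.26 between 2 and 12 weeks (adjusted p = 0.1945 in limma), or -0.52 without the second 2-week array, and by -0.81 ± 0.26 between 4 and 12 weeks (adjusted p = 0.7393). C6 was higher after PH than at 2 weeks by 1.03 ± 0.26 (adjusted p = 0.1069 in limma, 95% interval 0.44 to 1.62). It was higher after PH than at 4 weeks by 0.99 ± 0.26 (adjusted p = 0.2122 in limma, 0.41 to 1.58). The means in these 2 differences leave out the 12-week arrays but share the PH arrays. Their pooled spread uses all 8 arrays. With each array centred on its median the difference between PH and 2 weeks was 1.18 and its adjusted p was 0.04986, which made C6 the only member called in any alternative. Both PH arrays also lay above both 12-week arrays, which held for 13.7% of all genes. That difference was 0.18 ± 0.26, with a 95% interval of -0.41 to 0.77.

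C8g, the small lipocalin-like subunit of C8, was at 11.60 and 12.25 after PH, 11.27 and 11.65 at 2 weeks, 11.63 and 11.98 at 4 weeks, and 11.84 and 12.51 at 12 weeks. The second array was the higher in all 4 groups, and the groups overlapped except 2 and 12 weeks. Its partners C8a and C8b, whose products form the pore-building part of C8, had group means within 0.15 and 0.11 of each other. C9, the unit that polymerises into the pore, ranged over 0.20, and Vtn (vitronectin), which blocks pore insertion, over 0.09. C6 and C9 lie close together in the genome, with 9 protein-coding genes between them, while their ranges were 1.03 and 0.20.

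The classical and lectin group (9 of 10 members measured) had medians between -0.07 and 0.14 in the 6 comparisons, with 0 members called. For PH against 2 weeks 4 of the 9 were above 0, 7 with each array centred on its median and 5 on its 75th percentile, where the shares of all genes above 0 were 53.1%, 69.4% and 58.6%. Mbl2, a mannose-binding lectin that recognises microbial sugars, was at 10.99 and 10.84 after PH, 11.95 and 10.17 at 2 weeks, 11.91 and 11.46 at 4 weeks, and 12.01 and 11.69 at 12 weeks. The PH arrays were below those of 4 and 12 weeks, and the 2-week arrays lay on both sides of the PH and 4-week arrays. The lowest Mbl2 value of the 8 arrays, 10.17, was on the second 2-week array. The first 2-week array, where Mbl2 lay between the 12-week values, had the higher neutrophil marker level given above. Whether the neutrophil RNA on that array bears on Mbl2 was not tested. Mbl1, the other mannose-binding lectin, ranged over 0.51 and was also lowest after PH, at 9.98 and 9.85, though its 12-week arrays (9.72 and 10.21) lay on both sides of these.

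C4bpb, the β chain of C4b-binding protein, was at 12.27 and 12.45 after PH, 12.54 and 12.29 at 2 weeks, 12.07 and 12.47 at 4 weeks, and 11.51 and 12.19 at 12 weeks. The 12-week duplicates lay apart, the first below every other array and the second within the 4-week values. Its neighbour C4bpa, the α chain of the same inhibitor, had 13.03 and 13.02 after PH against 12.60 and 12.87 at 12 weeks, and its group means ranged over 0.29. The initiating proteases C1r and C1s ranged over 0.22 and 0.31, the lectin pathway proteases Masp1 and Masp2 over 0.35 and 0.28, and Serping1, the inhibitor of C1, over 0.24.

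In the C3 and alternative group (3 of 4 measured), C3, the component on which all pathways converge, had the smallest range of the set at 0.08, with values from 13.48 to 13.73 on the 8 arrays. Cfi, the protease that inactivates C3b, was at 11.78 and 12.30 after PH, 12.35 and 12.63 at 2 weeks, 12.01 and 12.45 at 4 weeks, and 11.63 and 12.44 at 12 weeks. The second array was the higher in each group, and the 12-week duplicates lay further apart than the range of the group means, 0.45. Cfd (adipsin), a protease known from adipocytes, was at 6.03 and 6.5 after PH, 6.32 and 6.30 at 2 weeks, 6 and 6.47 at 4 weeks, and 6.48 and 6.24 at 12 weeks. These values lay near the array medians of 5.98 to 6.17 over all probe sets, and the mean of the 6 adipocyte markers lay at 6.05 to 6.53, a list that leaves out Cfd.

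The vitamin K-dependent factors (5 of 6 measured) held the gene with the widest range, with 0 called. For 4 against 12 weeks all 5 were below 0 (median -0.26), also under both centrings (median -0.33 and -0.28), and for 2 against 4 weeks 4 of 5 were above 0 under all 3 scalings (median 0.34 as deposited). F7, which starts clotting together with tissue factor, was at 10.37 and 10.61 at 2 weeks, 9.33 and 9.27 at 4 weeks, 9.83 and 9.92 at 12 weeks, and 9.67 and 10.15 after PH. The 2-week arrays were above all others and the 4-week arrays below all others, while PH and 12 weeks overlapped. F7 was higher at 2 than at 4 weeks by 1.19 ± 0.24, a 2.28-fold difference (adjusted p = 0.115 in limma; 95% interval 0.64 to 1.74). The difference lay between 1.07 and 1.32 over the 14 alternatives, with adjusted p no lower than 0.05718. Against 12 weeks it was 0.61 ± 0.24 at 2 weeks and -0.58 ± 0.24 at 4 weeks, both with adjusted p above the threshold (0.3712 and 0.9994).

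Proc, the zymogen of the anticoagulant activated protein C, was at 12.23 and 12.14 at 2 weeks, 11.54 and 10.88 at 4 weeks, 11.49 and 11.98 at 12 weeks, and 11.54 and 11.49 after PH. Its 2-week arrays were above all others, as with F7, and the other groups overlapped. Proc differed by 0.98 ± 0.28 between 2 and 4 weeks (adjusted p = 0.3595), and by 0.65 without the second 4-week array. F10, the neighbour of F7 with no protein-coding gene between them, ranged over 0.29, against 1.19 for F7. F2 (prothrombin) ranged over 0.37 and was also highest at 2 weeks, while Pros1 (protein S, the cofactor of activated protein C) was lowest there, at 11.37 and 11.54 against 11.74 and 11.82 at 12 weeks.

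**Figure D3:**
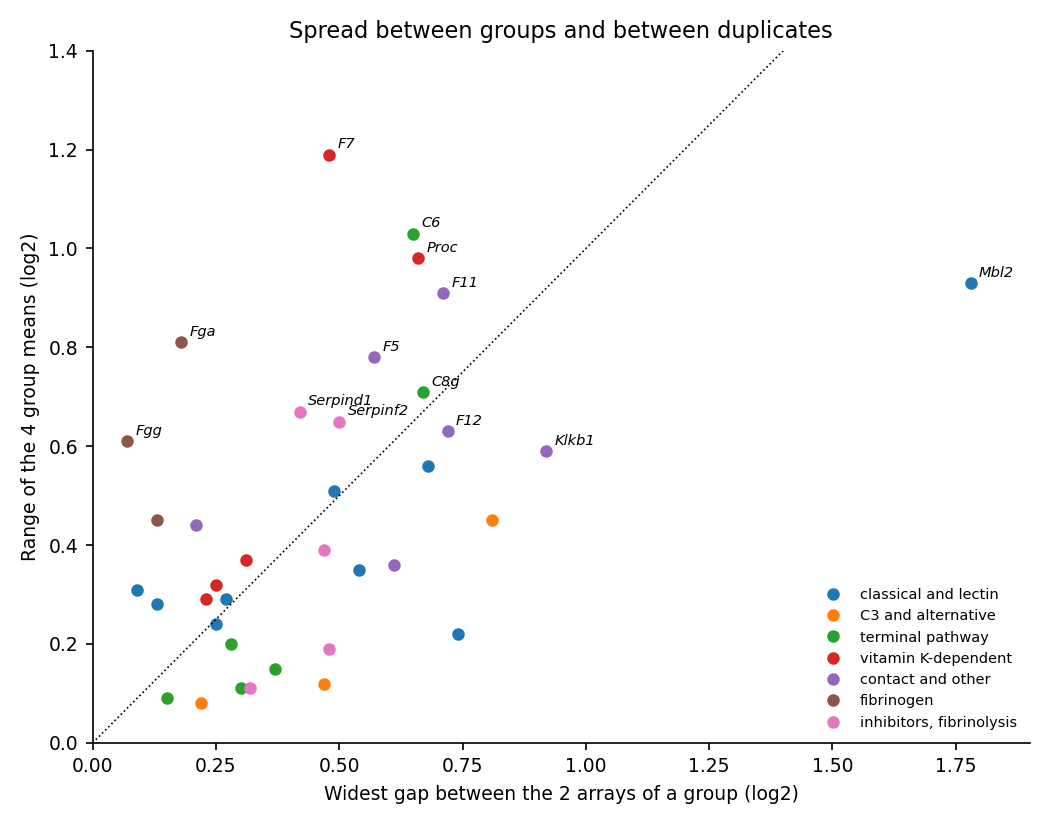
Range of the 4 group means (vertical axis, log2) against the widest gap between the duplicates of any group (horizontal axis, log2) for the 37 genes, coloured by role, with a dotted line where both are equal. Of the 37 points 19 lie above the line, F7 highest at 1.19, the fibrinogen chains have small gaps, and Mbl2 lies far to the right at 1.78.

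In the contact system and other clotting factors (6 of 6 measured), 0 were called, and F11 and F5 had the widest ranges. All 6 were above 0 for 2 against 4 weeks, with a median of 0.37 as deposited and 0.33 and 0.29 under median and 75th percentile centring. For PH against 2 weeks all 6 were below 0 as deposited (median -0.33) and 5 of 6 under either centring. F11, a protease that feeds thrombin generation back into the chain, was at 9.97 and 10.15 after PH, 10.85 and 11.09 at 2 weeks, 10.72 and 10.14 at 4 weeks, and 10.09 and 10.80 at 12 weeks. PH and 2 weeks did not overlap and differed by -0.91 ± 0.31 (PH lower, adjusted p = 0.2529), and the 4- and 12-week duplicates spanned much of that distance. Klkb1 (plasma prekallikrein), the neighbour of F11, had its highest mean at 2 weeks and its lowest after PH too, with a range of 0.59 and a gap of 0.92 between the 12-week duplicates. F5, the cofactor in prothrombin cleavage, was at 10.70 and 10.64 after PH, 10.90 and 11.05 at 2 weeks, 10.36 and 10.02 at 4 weeks, and 10.78 and 10.21 at 12 weeks. Its 2- and 4-week arrays did not overlap and differed by 0.78 ± 0.26 (adjusted p = 0.4575).

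F12, the contact factor that starts the chain on surfaces, differed by -0.63 ± 0.27 between 4 and 12 weeks (adjusted p = 0.9994). Its 4-week arrays were at 11.32 and 10.60, and the difference was -0.27 without the second of them and -0.99 without the first. F13b, the carrier subunit of the fibrin cross-linking enzyme, ranged over 0.36. Kng1, the kininogen that carries prekallikrein, was at 13.36 and 13.27 after PH and 12.87 and 12.96 at 12 weeks. Kng1 was the only member with a second single-symbol probe set, and the 2 did not give the same size. The other probe set was at 12.99 and 12.85 after PH and at 12.07 and 11.88 at 12 weeks, a gap more than 2 times as wide (0.95 against 0.40). The rat genome holds close copies of the kininogen gene, the T-kininogens, so the signal of both probe sets is uncertain.

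Among the thrombin inhibitors and fibrinolysis genes (5 of 5 measured), all 5 were below 0 for PH against 2 weeks, with a median of -0.34 and 0 called, and 4 of 5 under either centring (median -0.19 and -0.30). For 2 against 4 weeks all 5 were above 0 under all 3 scalings, with a median of 0.15 as deposited. The hepatocyte markers were below 0 in 8 of 8 genes for PH against 2 weeks, and their part was not tested. Serpind1 (heparin cofactor II) was at 12.00 and 12.12 after PH, 12.85 and 12.62 at 2 weeks, 12.51 and 12.09 at 4 weeks, and 12.32 and 12.35 at 12 weeks. Its 2-week arrays were above all others, and PH minus 2 weeks was -0.67 ± 0.23 (adjusted p = 0.2604). Serpinf2, the plasmin inhibitor α2-antiplasmin, was at 11.96 and 11.95 after PH, 12.85 and 12.35 at 2 weeks, 12.46 and 12.13 at 4 weeks, and 11.89 and 12.25 at 12 weeks. PH and 2 weeks did not overlap and differed by -0.65 ± 0.26 (adjusted p = 0.3758), which became -0.40 without the first 2-week array. Serpinc1 (antithrombin), the main inhibitor of thrombin, ranged over 0.11, Plg (plasminogen) over 0.19 and Cpb2, a carboxypeptidase that slows clot lysis, over 0.39.

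Counted over the whole set, differences lay on both sides of 0 in every comparison. For PH against 12 weeks 17 of 37 were above 0 (45.9%, against 50.3% of all genes; median -0.04), with 6 of 37 not overlapping below (16.2% against 15.2%), and the count was 18 with each array centred on its median (48.6% against 56%) and 13 on its 75th percentile (35.1% against 41.6%). For 4 against 12 weeks 17 were above 0 (45.9% against 50.1%; median -0.02) and 16 under both centrings (43.2%, against 38.9% and 45.6%), with 6 not overlapping above (16.2% against 13.7%) and 5 below (13.5% against 11.3%). For 2 against 12 weeks 24 of 37 were above 0 (64.9% against 48.4%; median 0.12), and 15 had both 2-week arrays above both 12-week arrays (40.5% against 17.6%) and 4 below (10.8% against 16.8%). The count above 0 was 19 under both centrings (51.4%, against 36.4% and 37.4% of all genes), where the member medians were 0.00 and 0.01 and the medians over all genes -0.13 and -0.12. Beside this, 7 of 8 hepatocyte markers were above 0 at 2 weeks, with a median of 0.14 and 0 called. Erythroid markers were above 0 in 5 of 5 genes (median 2.01), with 3 called higher. Stellate cell markers were above 0 in 7 of 7 genes (median 1.56), with 2 called higher. Neutrophil markers were above 0 in 7 of 7 genes (median 1.58), with 0 called. The part of these cells in the shift of the set was not tested.

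For 2 against 4 weeks 26 of 37 were above 0 (70.3% against 49.8%; median 0.08), which became 24 with median centring (64.9% against 44.9%) and 19 with 75th percentile centring (51.4% against 40.5%). In it 10 did not overlap above (27% against 20.1%) and 4 below (10.8% against 20.1%). Hepatocyte markers were above 0 in 6 of 8 genes (median 0.11), neutrophil markers in 6 of 7 (median 1.07), erythroid markers in 4 of 5 (median 0.61) and stellate cell markers in 5 of 7 (median 0.41), with 0 called, and their part was not tested. For PH against 2 weeks 13 of 37 were above 0 (35.1% against 53.1%; median -0.06), and 13 had both PH arrays below both 2-week arrays (35.1% against 22.2%) and 6 above (16.2% against 24.6%). The count above 0 was 22 with median centring (59.5% against 69.4% of all genes), which moved the median of all genes from 0.03 to 0.18, and 17 with 75th percentile centring (45.9% against 58.6%). The members' share was below that of all genes under each of the 3 scalings. All 8 hepatocyte markers were below 0 in this comparison, with a median of -0.29, and their part was not tested. In the same comparison 4 of 5 erythroid markers were below 0 (median -2.80), with 3 called lower. Stellate cell markers were below 0 in 7 of 7 genes (median -1.22), with 1 called lower. Neutrophil markers were below 0 in 6 of 7 genes (median -1.19), with 0 called. The part of these cells was not tested either. For PH against 4 weeks 21 of 37 were above 0 (56.8% against 49.2%; median 0.05), 25 with median (67.6% against 63.6%) and 20 with 75th percentile centring (54.1% against 45.4%), and 8 did not overlap above (21.6% against 21.6%) and 7 below (18.9% against 22.5%).

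**Figure D4:**
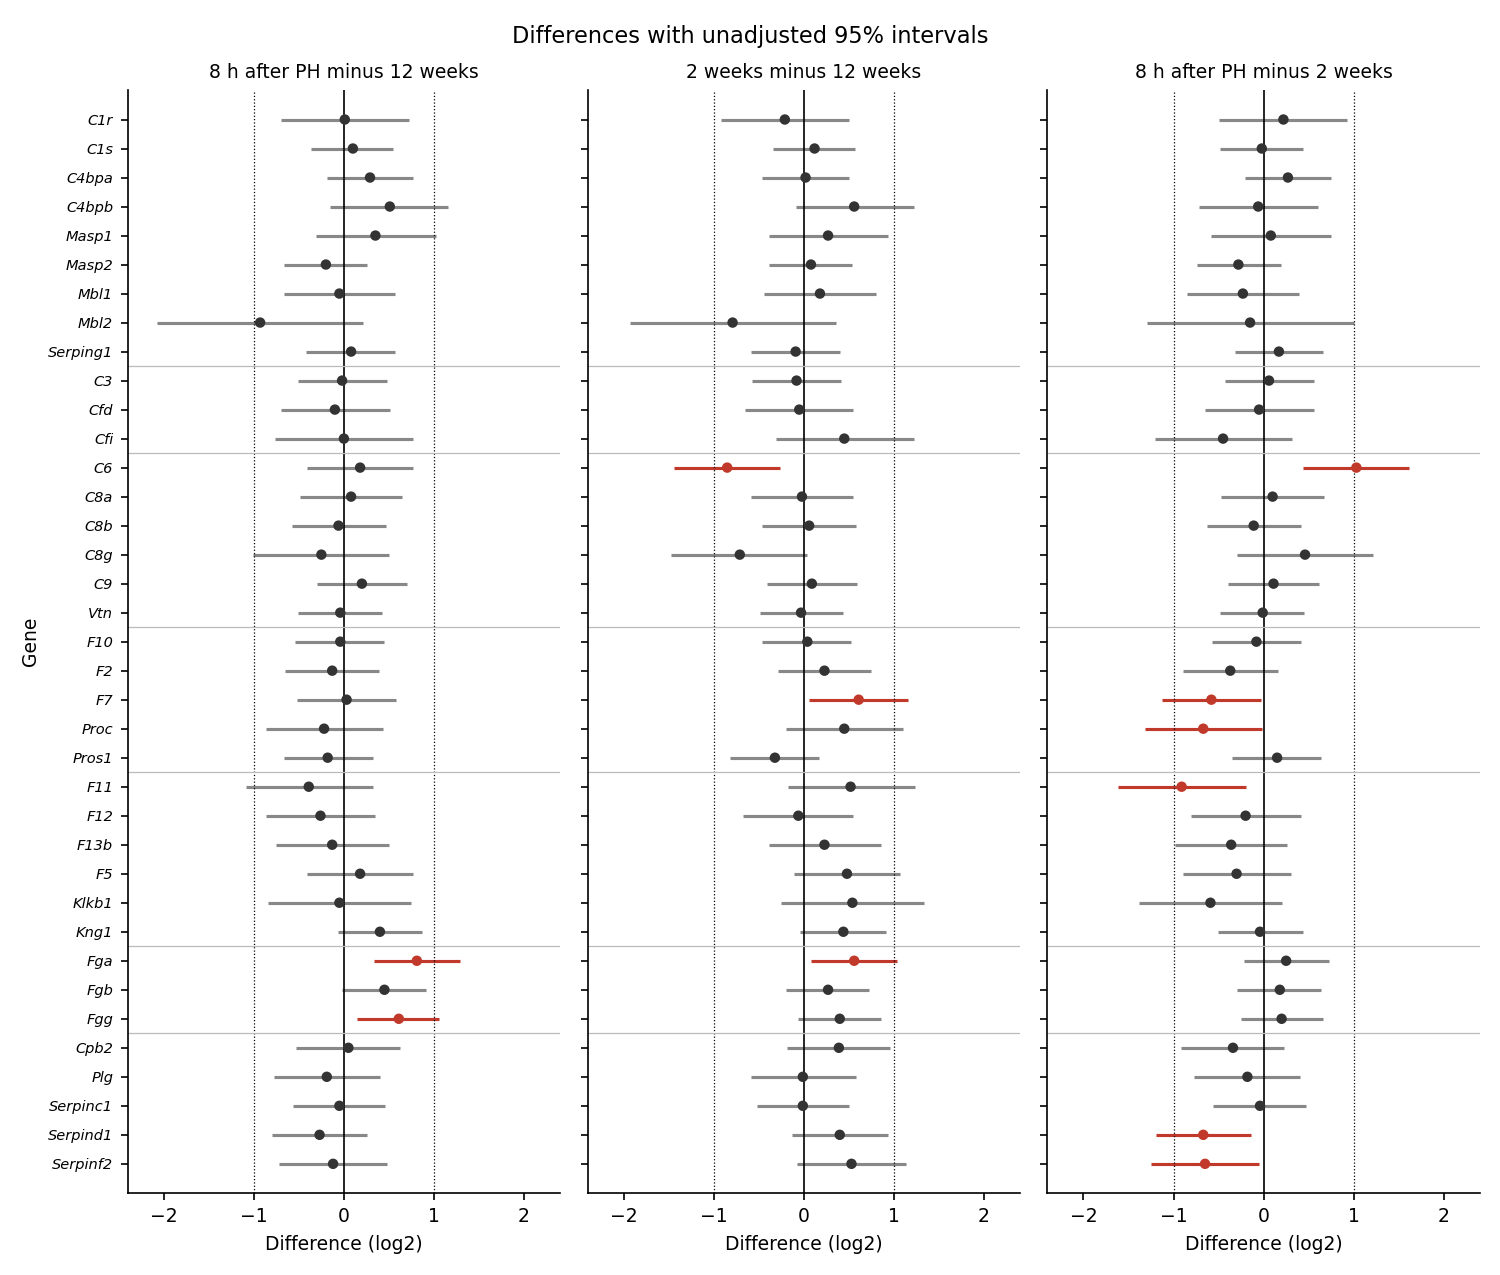
Differences (points, log2) with unadjusted 95% intervals (bars) of the 37 genes in 3 of the 6 comparisons, with red where the interval leaves out 0 and dotted lines at 1 log2 unit either way. Red bars number 2 for PH minus 12 weeks, 3 for 2 weeks minus 12 weeks and 6 for PH minus 2 weeks, and no gene had an adjusted p under 0.05.

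The highest group mean was at 2 weeks for 16 members, after PH for 9, at 12 weeks for 9 and at 4 weeks for 3, against 26.9%, 26.5%, 23.6% and 23% of all genes. The lowest mean was after PH for 11 members, at 12 weeks for 11, at 4 weeks for 9 and at 2 weeks for 6. The shares of all genes were 24.7%, 22.2%, 23.1% and 30%. These ranks are for the values as deposited. They were not counted under the centrings, which moved the counts above 0 in the comparisons with 2 weeks. Genes that neighbour each other did not always share the highest and lowest group. The fibrinogen chains, F7 with F10, and Klkb1 with F11 had the same highest and lowest group, while C8a with C8b and C1r with C1s did not. However, C8a, C8b, C1r and C1s ranged over only 0.15, 0.11, 0.22 and 0.31, so the rank of their group means is uncertain. For C8a, C8b and C1r the widest gap between duplicates exceeded that range. C4bpa and C4bpb, with 1 protein-coding gene between them, shared the lowest group but not the highest, at ranges of 0.29 and 0.56, and C6 and C9 shared the highest group but not the lowest.

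Other genes of the 2 systems, made partly by other cells, were read from a list of 54 symbols of which 47 were measured. The list includes the C1q chains of macrophages, complement receptors and regulators, tissue factor, plasminogen activators and the vitamin K cycle enzymes. It also names von Willebrand factor, which was not among the genes measured. In 5 of the 6 comparisons 1 of the 47 was called higher and 0 were called lower, and for PH against 2 weeks 0 were called. The gene was the same each time, A2m, a broad protease inhibitor of the rat acute phase. A2m was at 12.57 and 12.99 after PH, 12.81 and 12.02 at 2 weeks, 10.67 and 10.30 at 4 weeks, and 6.53 and 6.70 at 12 weeks. Against 12 weeks it was higher by 6.17 after PH (adjusted p = 0.0004198 in limma), by 5.80 at 2 weeks (0.0001105) and by 3.87 at 4 weeks (0.004391; 0.05997 without the first 4-week array). It was higher at 2 than at 4 weeks by 1.93 ± 0.31 (adjusted p = 0.04911) and after PH than at 4 weeks by 2.3 ± 0.31 (0.03267). The call between 2 and 4 weeks was lost without any 1 of the PH, 2-week or 4-week arrays or with only those 2 groups fitted, and that between PH and 4 weeks without any 1 of the PH or 4-week arrays, with adjusted p up to 0.321 and 0.2503. PH and 2 weeks overlapped. The medians of the 47 genes were 0.03, 0.12, 0.16, 0.00, 0.02 and -0.12 for PH, 2 and 4 weeks against 12 weeks, 2 against 4 weeks, and PH against 2 and 4 weeks.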

How the data were processed

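The authors deposited 1 table of log2 values. The submitters' processing notes name RMA, a method that subtracts background, brings arrays to a common distribution and combines probes, and the program Affymetrix Expression Console. Versions, filters and build are not given in these sources, and the log2 scale was read from the values (1.32 to 14.23). Of 29214 probe sets, 15316 carried 1 gene symbol, 317 several, and 13581 were unnamed here. Symbols were checked by gene ID against the GRCr8 gene table (15285 matched, 0 updated), and for the 528 genes with more than 1 probe set the one of highest mean was kept, leaving 14511 genes. All 6 comparisons came from a single model with a mean per group over the 8 arrays (limma 3.58.1, R 4.3.3, lmFit and eBayes, 4 residual and 4.27 prior degrees of freedom), two-sided, at an adjusted p under 0.05. The script was tested on simulated data for 2 against 12 weeks, with 200 of 14511 genes changed. It found 17.2% of the differences of 1 log2 unit and 95.6% of those of 2 units. Errors are moderated standard errors, and the number of arrays limits the precision. Members, lists and tests were chosen with earlier results of these data known. Values on every array are given for members called in any comparison and for the 2 of widest range in each role group, and those of Fgb, Mbl1, C4bpa, Pros1, C3, Kng1, F12 and A2m were chosen after their values were seen, A2m as the called gene of the wider list. Alternatives, those of the F test and the counts above 0 chosen after seeing the data, were median and 75th percentile centring, a filter on dim genes, the mean of a gene's probe sets, only the groups compared, the replicate number as a block, each array left out, and other thresholds. Promoter windows came from RefSeq (GRCr8), with the first listed start of each gene. Marker lists of macrophages, lymphocytes, endothelial cells, cholangiocytes and platelets were also measured.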

Additional observations from a re-analysis of the deposited data

How the results depend on the processing

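The 2 arrays per group limit the precision (median SE of a member's difference 0.25). The count of members called was 0 in 108 of the 109 alternatives run over the 6 comparisons and the F test, among them the limits of 0.01 and 0.1 on the adjusted p, and leaving out any 1 array gave 0 to 0. The exception was PH against 2 weeks with median centring, where 1 member was called, C6 (1.18). With replicate number as a block, 0 members were called in each of these. Replicate numbers were not taken to pair the arrays in the main model. The deviations of same-numbered arrays correlated over genes above 0 in every pair of groups, from 0.02 (2 and 12 weeks) to 0.57 (PH and 12 weeks). Whether same-numbered arrays share a component was not tested. Of 476 values of 34 member differences, 470 kept their direction and stayed uncalled, and 5 changed sign. These were Fgb between 2 and 4 weeks (0.02) at -0.02 with median centring, -0.05 with 75th percentile centring, -0.01 without the second 2-week array and -0.02 without the first 4-week array (-0.02 to 0.06 over all left-out arrays), and Fgg at -0.02 with 75th percentile centring. A2m between PH and 2 weeks (0.36) was -0.03 without the second 2-week array (-0.03 to 0.76 over all left-out arrays). The cause was not tested. The count above 0 for PH against 2 weeks ran from 10 to 22.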

Other observations

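The remaining marker lists were measured beside the set. Lymphocyte markers (7 of 8 measured) averaged 5.40 and 5.52 after PH, 5.44 and 5.55 at 2 weeks, 5.52 and 5.99 at 4 weeks, and 5.72 and 6.58 at 12 weeks. Their median difference from 12 weeks was -0.66 after PH, -0.80 at 2 weeks and -0.41 at 4 weeks, with 0 called in each. Macrophage markers (8 of 8) averaged 9.40 and 8.60 on the 12-week arrays and 9.23 to 9.50 on the other 6. Endothelial markers (5 of 7) averaged 8.84 to 9.45 over the arrays and platelet markers (3 of 6) 5.78 to 6.27. Cholangiocyte markers (4 of 5) averaged 5.97 to 7.79, with the highest value on the first 4-week array. On that array Spp1 was at 11.77, against 5.52 to 6.99 on the others. Krt19, Krt7 and Epcam there lay within their values on the other arrays.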
